A study of Mus musculus with 15 samples.

Results

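The 35 genes described here encode the Polycomb machinery, the enzymes that write, read and remove the histone marks of Polycomb repression. They were chosen by name, with earlier results of these data known. The deposited table of mouse embryonic stem cell RNA sequencing held 24451 genes. All 35 were in the table and all 35 passed the filter on low counts, which left 14600 genes for the tests. Polycomb repressive complex 2 (PRC2) places methyl groups on lysine 27 of histone H3 through its catalytic subunit, Ezh2 or Ezh1. Polycomb repressive complex 1 (PRC1) attaches ubiquitin to histone H2A through Rnf2 or Ring1, and each assembly holds one of several PCGF subunits. Canonical PRC1 reads H3K27me3 through a CBX protein and clusters chromatin through PHC proteins, whereas variant PRC1 carries Rybp or Yaf2 in place of CBX. In embryonic stem cells both complexes sit at CpG islands of silent developmental genes, and Kdm6 demethylases and the Bap1 deubiquitinase take the marks off again.

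The cells were the ES-R1 mouse line, grown without serum in medium holding N2 and B27 and sampled on day 4 of differentiation. All 5 groups carried an siRNA, and each held 3 libraries. They were Vprbp siRNA with Activin A at 25 ng/ml, Vprbp siRNA with no addition, control siRNA with Activin A at 25 ng/ml, control siRNA with the receptor inhibitor SB, and control siRNA with no addition, called untreated control below. Activin is a ligand of the Nodal branch of TGF-beta signalling, which acts through Smad2 and Smad3, and SB blocks its type I receptors. Vprbp brings substrates to the CRL4 ubiquitin ligase. Only control siRNA cells received SB, and the sources used here spell it in 2 ways (SB431524 and SB431542) without a dose. Nothing in the labels says that the 3 replicates of a group were separate cultures. The p-values therefore cover the spread among these libraries, possibly a technical one.

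Libraries held 11.1 to 15.5 M counts in genes (M, mega), so that 3 counts, the limit set by a count of 0, corresponded to 0.193 to 0.269 counts per M (CPM). Values are CPM on scaled library sizes, and log2 fold changes carry ± their standard error. That error was worked back from the fold change and the F statistic of the test named next. The words rose, fell and called are kept for genes with an adjusted p under 0.05 in edgeR's quasi-likelihood test, adjusted by Benjamini-Hochberg over the 14600 genes. On the first 2 principal components over all genes, 3 libraries lay apart from their groups: untreated control replicate 3, untreated Vprbp siRNA replicate 3, and replicate 1 of the group with Vprbp siRNA and Activin. Of the 35 members, 14 overlap another gene in RefSeq. They are Ezh2, Rbbp4, Rbbp7, Phf1, Pcgf5, Cbx2, Cbx6, Cbx7, Phc2, Kdm2b, Rybp, Yaf2, L3mbtl2 and Kdm6b. Since no strand setting is given in the sources used here, reads of overlapping genes cannot be told apart. The 10 embryonic stem cell markers were all detected in every group and summed to 4894 to 5126 CPM with Vprbp siRNA and Activin, 4804 to 4948 CPM with Vprbp siRNA alone, 4817 to 5225 CPM with control siRNA and Activin, 3337 to 3726 CPM with SB and 4638 to 4933 CPM in the untreated control.

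Per kilobase of exon, the Polycomb genes spanned more than 3 orders of magnitude in the untreated control. Phc1, a PHC scaffold of canonical PRC1, led with 342 ± 38.3 CPM per kb (SD, n = 3 here and below), ahead of the PRC2 accessory subunit Jarid2 with 147 ± 5.14 CPM per kb. The histone-binding subunits Rbbp7 and Rbbp4, which also serve other chromatin complexes, followed at 100.2 ± 4.98 and 94.1 ± 0.176 CPM per kb. Paralogs differed widely. Ezh2 stood at 52.6 ± 0.798 CPM per kb and Ezh1 at 15.2 ± 1.08, Rnf2 at 68.2 ± 1.70 and Ring1 at 8.30 ± 0.693, and the PCGF subunit Pcgf2 at 64.9 ± 6.08 with Bmi1, its paralog, at 4.30 ± 0.796. Among the CBX readers, Cbx7 had 73.6 ± 4.44 CPM per kb and Cbx8, the lowest of the 35 genes, 0.152 ± 0.0844 CPM per kb. Cbx8 rested on 3 to 12 counts per untreated control library, near the limit of 3 counts. In the order of untreated control levels, 17 of the 34 pairs of neighbours had ranges that did not overlap and 17 overlapped.

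**Figure D1:**
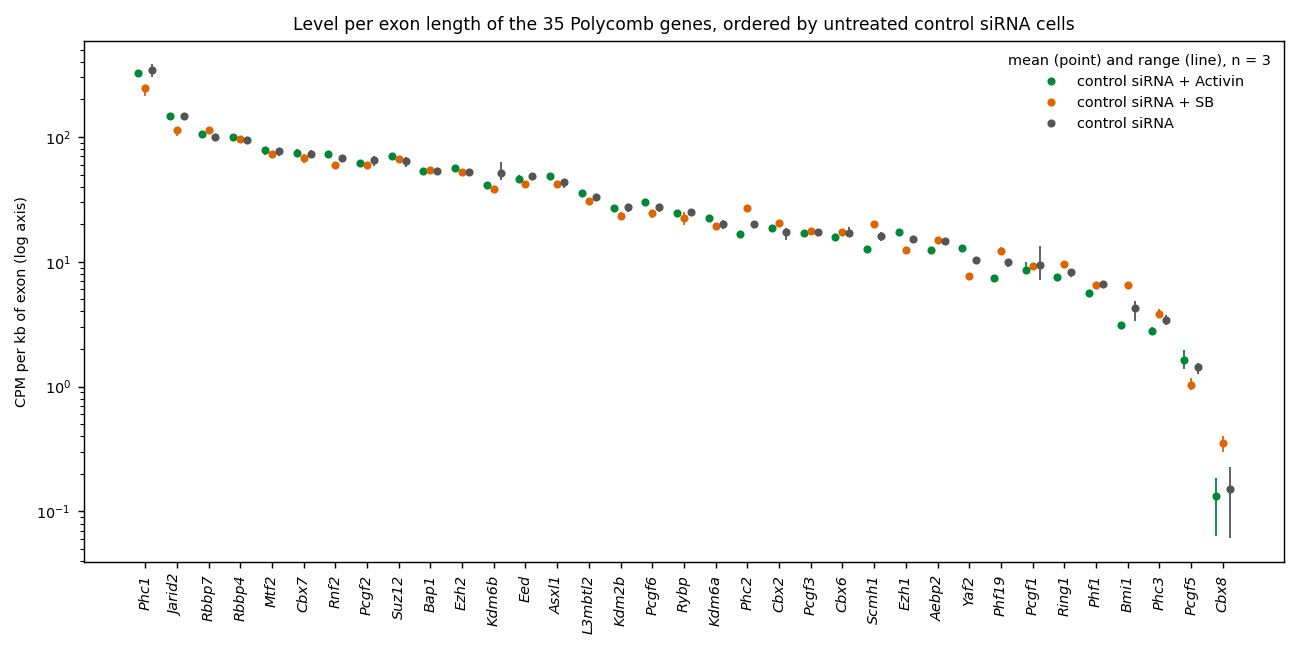
Level of each of the 35 Polycomb genes as CPM per kilobase of exon on a log axis, in control siRNA cells with Activin, with SB and untreated, ordered by the untreated level. Points are means and lines the range of 3 libraries, with Phc1 and Jarid2 at the top and Cbx8 at the bottom.

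The promoters of Ezh1, Rnf2 and Bmi1 are printed because these genes are among the 12 members with the smallest p-values between Activin and SB, went both ways there (Ezh1 and Rnf2 higher with Activin, Bmi1 lower), and each has 1 RefSeq promoter entry. Ezh1 lies on chromosome 11 from 101191115 to 101226463, Rnf2 on chromosome 1 from 151469398 to 151500991, and Bmi1 on chromosome 2 from 18677018 to 18686629 (RefSeq, GRCm38). The sequences are the 250 bases before each gene's start, read 5′ to 3′ in the direction of transcription, from RefSeq on GRCm38.p6. Capitals mark the Smad box CAGAC and a second motif bound by Smad proteins, GGCGC, each read on both strands. The second motif overlaps its own reverse complement, so a run of 6 capitals can hold 2 matches.
Ezh1, chr11:101226464-101226713, minus strand: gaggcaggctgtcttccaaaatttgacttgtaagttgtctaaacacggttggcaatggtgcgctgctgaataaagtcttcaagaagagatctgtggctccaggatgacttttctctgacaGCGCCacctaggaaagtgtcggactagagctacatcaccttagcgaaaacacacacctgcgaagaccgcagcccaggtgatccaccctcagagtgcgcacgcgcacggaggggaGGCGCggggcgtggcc
Rnf2, chr1:151500992-151501241, minus strand: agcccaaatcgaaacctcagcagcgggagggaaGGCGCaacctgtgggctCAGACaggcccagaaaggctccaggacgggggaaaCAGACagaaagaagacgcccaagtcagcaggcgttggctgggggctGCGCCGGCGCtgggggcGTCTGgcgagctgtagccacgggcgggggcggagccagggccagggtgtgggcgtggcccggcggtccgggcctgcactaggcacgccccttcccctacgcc
Bmi1, chr2:18676768-18677017, plus strand: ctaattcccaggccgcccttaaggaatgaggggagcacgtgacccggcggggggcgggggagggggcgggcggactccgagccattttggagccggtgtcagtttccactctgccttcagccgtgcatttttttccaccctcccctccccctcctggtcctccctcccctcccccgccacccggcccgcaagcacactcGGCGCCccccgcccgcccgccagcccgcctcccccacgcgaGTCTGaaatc
The Ezh1 promoter held no CAGAC and 2 matches of GGCGC, the Rnf2 promoter 3 of each, and the Bmi1 promoter 1 CAGAC and 2 GGCGC. The Smad box was found in 14 of 42 promoters (33.3%) of the 30 members with a RefSeq entry and in 42.2% of all 32851 mouse promoters. GGCGC was found in 29 of the 42 (69.0%) and in 32.0% of all promoters. Member promoters held a median of 20.5 CpG dinucleotides, against 6 over all promoters, and a median G+C content of 65.4%, against 52.4%. A match describes letters in this window and no site of binding.

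The design asks how the machinery responds when Activin signalling is raised or blocked, and the widest contrast is Activin against SB within control siRNA cells. There 18 of the 35 genes differed, 11 higher and 7 lower with Activin, against 38.0% of all genes tested (2780 higher and 2767 lower). With SB against the untreated control, 13 changed, 4 higher and 9 lower, against 22.6% of all genes (11.2% higher, 11.3% lower). Activin against the untreated control moved 2 of 35, both lower, in control siRNA cells, where 4.83% of all genes changed (2.95% higher, 1.88% lower). In Vprbp siRNA cells Activin moved 4 of 35, of which 1 rose and 3 fell, against a background of 6.12% (3.65% higher, 2.47% lower). Groups of libraries did not overlap for 23 of 35 members between Activin and SB (54.9% of all genes), for 18 with SB (37.2%), for 17 with Activin in control siRNA cells (27.6%) and for 8 with Activin in Vprbp siRNA cells (21.4%). Over all 35 genes the median log2 fold change stayed near 0, at 0.06 for Activin against SB (all genes -0.002), -0.04 for SB (all genes -0.005), -0.02 for Activin in control siRNA cells and -0.06 for Activin in Vprbp siRNA cells. Genes of the same role were called in both directions in 3 of the 6 roles, both for Activin against SB and with SB: PRC2 accessory subunits, RING and PCGF subunits, and canonical PRC1 readers and scaffolds. Without the 3 libraries that lay apart, a fit chosen after seeing the data, the counts were 12 with SB (29.2% of all genes), 5 with Activin in control siRNA cells (5.11%) and 1 with Activin in Vprbp siRNA cells (5.14%).

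The contrasts share libraries: SB and Activin were each set against the same untreated control, and both enter the contrast between them. Of the 35 genes, 14 passed the threshold in none of the 4 contrasts, 9 in 1, 9 in 2, 2 in 3, and Phf19 in all 4. Every gene called both with SB and in Activin against SB (11 genes) had opposite signs in them. The SB libraries enter these 2 contrasts with opposite sign, so this outcome was largely set by the design and is no separate result. When a fold of at least 1.2 was required, 7 members were called for Activin against SB (19.5% of all genes), 1 with SB (9.41%), 0 with Activin in control siRNA cells (0.842%) and 1 with Activin in Vprbp siRNA cells (1.67%).

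**Figure D2:**
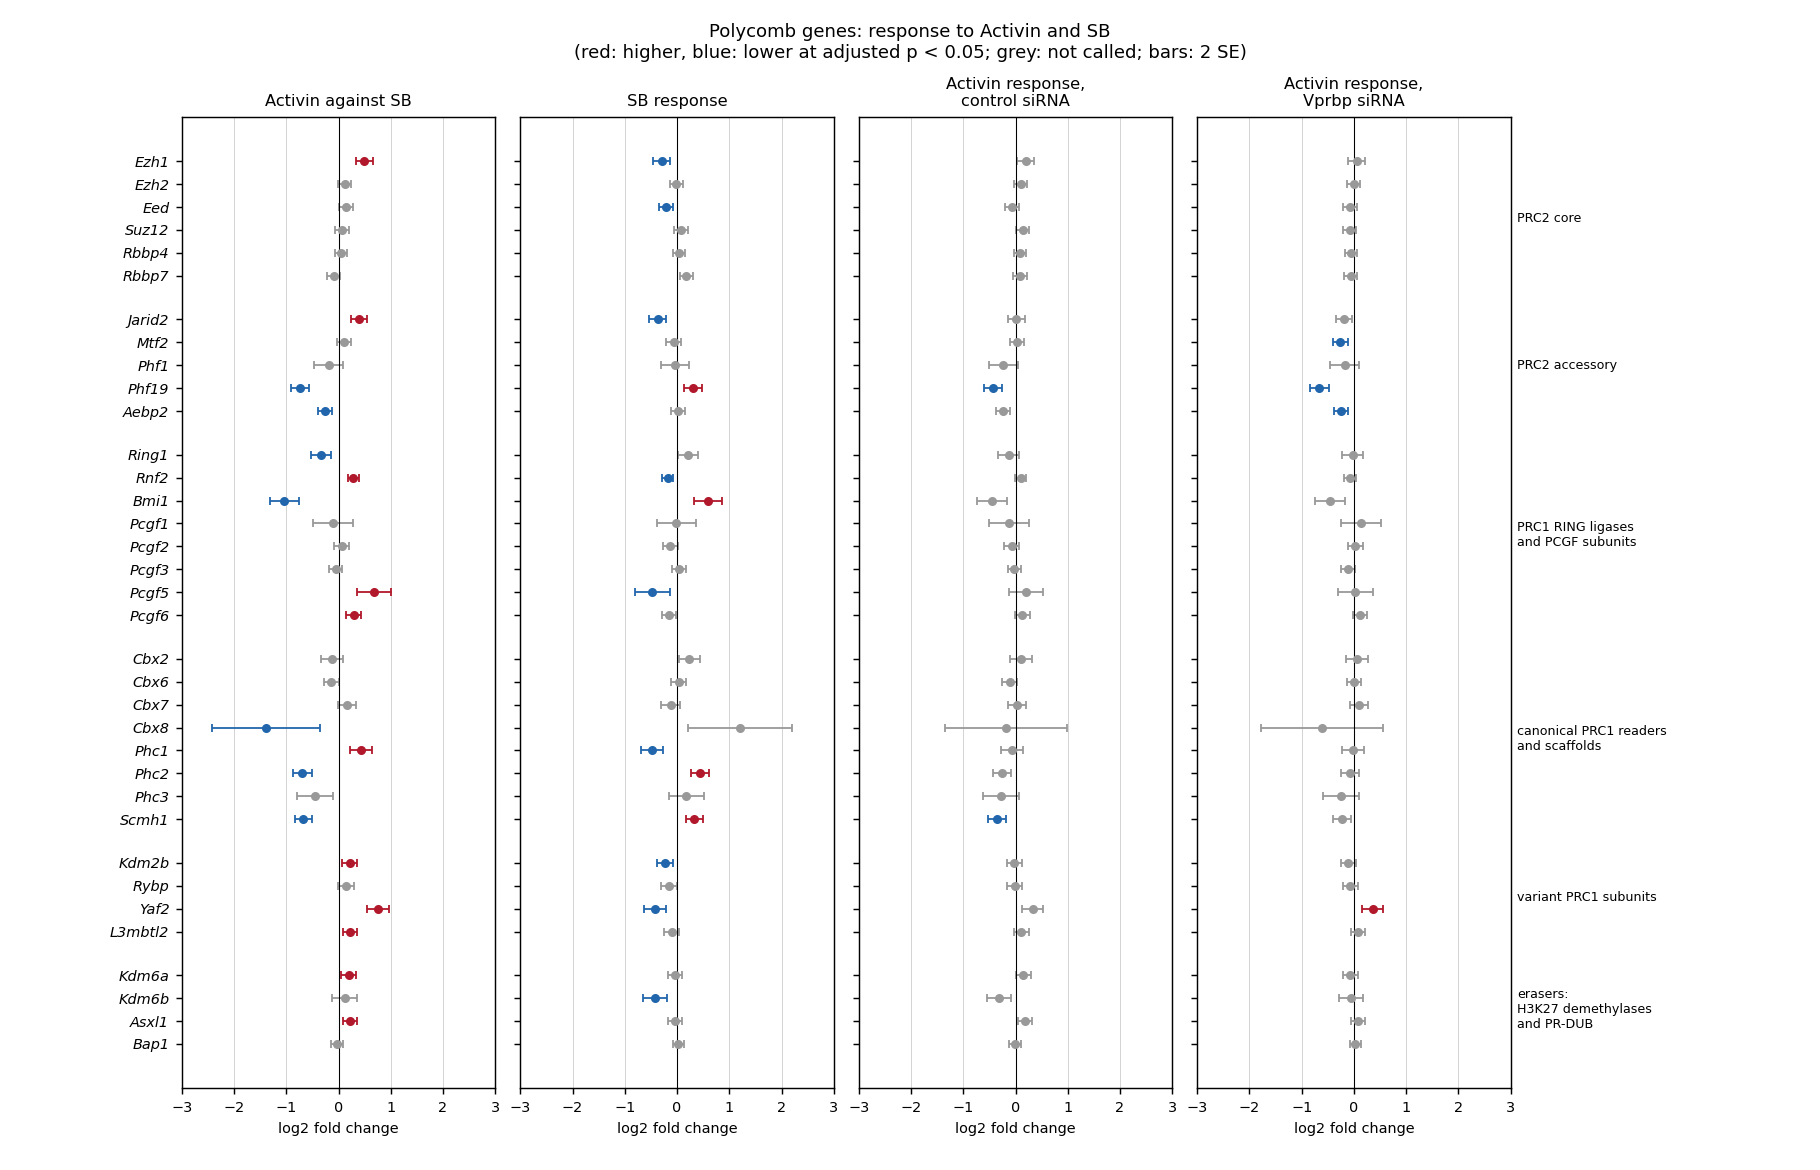
Log2 fold change of each of the 35 Polycomb genes in 4 contrasts, with bars of 2 standard errors. Red points were higher and blue points lower at an adjusted p under 0.05, and grey points did not pass. Phf19 and Scmh1 lie on the low side with Activin and the high side with SB, and Yaf2 the other way round.

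Among the 6 PRC2 core subunits, Ezh1 was higher with Activin than with SB and was the only 1 of the 6 called there, while Ezh1 and Eed fell with SB. Ezh1, the catalytic subunit with the weaker methyltransferase activity, stood at 103, 108 and 107 CPM with Activin, 70.7, 76.8 and 79.1 CPM with SB and 93.6, 98.5 and 85.5 CPM untreated. All Activin libraries lay above all SB libraries, with the untreated control between them, and the log2 difference of Activin against SB was 0.49 ± 0.08 (edgeR adjusted p = 7.8e-05). SB against the untreated control gave -0.29 ± 0.08 (edgeR adjusted p = 0.012), and this call was lost without SB replicate 1 (0.073) or untreated control replicate 2 (0.069), each left out alone, with the adjusted p then reached in brackets here and below. Ezh2, the main catalytic subunit in stem cells, averaged 158 ± 7.96 CPM with Activin, 146 ± 8.25 CPM with SB and 147 ± 2.24 CPM untreated, a log2 difference of 0.11 ± 0.06 between Activin and SB. Eed, the subunit that binds H3K27me3, fell with SB to 83.3, 84.8 and 91.6 CPM, against 99.1, 97.2 and 105 CPM in the untreated control (log2 fold change -0.21 ± 0.07). That call was lost without SB replicates 1 (0.11) and 2 (0.092) or untreated control replicate 3 (0.076). Suz12, the scaffold of the complex, and Rbbp4 and Rbbp7 passed in none of the 4 contrasts, with log2 differences between Activin and SB of 0.06 ± 0.06, 0.04 ± 0.06 and -0.09 ± 0.06. Without untreated control replicate 1, Rbbp7 passed as higher with SB (log2 0.22, edgeR adjusted p = 0.039).

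The PRC2 accessory subunits held the gene with the most calls. Phf19, a Polycomb-like protein that brings PRC2 to unmethylated CpG islands, stood at 29.0, 27.9 and 26.1 CPM with Activin, 43.2, 49.4 and 45.5 CPM with SB and 39.1, 38.9 and 34.2 CPM untreated. In Vprbp siRNA cells it stood at 23.2, 22.3 and 20.9 CPM with Activin and 37.6, 34.4 and 33.3 CPM without. The ranges did not overlap in any of these contrasts. Log2 fold changes of Phf19 were -0.74 ± 0.09 for Activin against SB, -0.44 ± 0.09 for Activin in control siRNA cells, -0.66 ± 0.09 for Activin in Vprbp siRNA cells and 0.30 ± 0.08 for SB (edgeR adjusted p = 1.3e-06, 0.006, 0.00014 and 0.013). The 2 Activin calls held in every fit without 1 library, while the SB call was lost without SB replicate 2 (0.072) or untreated control replicate 3 (0.059).

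Jarid2, a subunit of the PRC2.2 form that stimulates the enzyme, stood at 903, 922 and 917 CPM with Activin, 625, 728 and 739.5 CPM with SB and 916, 928 and 868 CPM untreated. Only the SB libraries lay apart, and Jarid2 fell with SB (log2 fold change -0.37 ± 0.08, edgeR adjusted p = 0.002) and was higher with Activin than with SB (0.39 ± 0.08). Aebp2, its partner in PRC2.2, stood at 99.9, 106 and 99.4 CPM with Activin, 119, 119 and 127 CPM with SB and 125, 115 and 118 CPM untreated. Aebp2 was lower with Activin than with SB (log2 -0.26 ± 0.07), and against the untreated control Activin gave -0.23 ± 0.07 (edgeR adjusted p = 0.051), just short of the threshold. In Vprbp siRNA cells it fell to 96.5, 103 and 106 CPM with Activin, against 116, 115 and 133 CPM without (log2 -0.25 ± 0.07), a call lost without Vprbp siRNA with Activin replicates 1 (0.13) and 2 (0.092) or untreated Vprbp siRNA replicates 1 (0.057) and 3 (0.24). Jarid2 passed as lower with Activin in Vprbp siRNA cells when replicate 3 of Vprbp siRNA with Activin was left out (log2 -0.27, edgeR adjusted p = 0.034). Both PRC2.2 subunits differed between Activin and SB, Jarid2 upward and Aebp2 downward.

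Mtf2, the Polycomb-like gene with the highest level per kilobase, had 272, 286 and 294 CPM in Vprbp siRNA cells with Activin and 337, 341 and 341 CPM in those without, with no overlap (log2 -0.26 ± 0.07). That call was lost without Vprbp siRNA with Activin replicates 1 (0.10) and 2 (0.088) or untreated Vprbp siRNA replicates 1 (0.079), 2 (0.052) and 3 (0.095). In control siRNA cells Mtf2 stood at 339, 321 and 294 CPM with Activin, 299, 279 and 315 CPM with SB and 334, 316 and 285 CPM untreated, and these ranges overlapped. Phf1, the remaining Polycomb-like gene, averaged 14.9 ± 0.281 CPM with Activin, 17.1 ± 0.545 CPM with SB and 17.6 ± 0.254 CPM untreated and passed in no contrast.

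Of the 8 RING and PCGF subunits, 3 were higher and 2 lower with Activin than with SB. Bmi1 (Pcgf4), a PCGF subunit of canonical PRC1, stood at 10.9, 11.7 and 12.1 CPM with Activin, 23.2, 23.8 and 24.8 CPM with SB and 17.8, 17.3 and 12.5 CPM untreated. Every SB library was above every other library, and the lowest untreated value, in replicate 3, was 12.5 CPM. Bmi1 rose with SB (log2 fold change 0.59 ± 0.14, edgeR adjusted p = 0.003) and was lower with Activin than with SB (log2 -1.04 ± 0.14, edgeR adjusted p = 7.1e-06). Activin against the untreated control gave -0.46 ± 0.14 and did not pass (edgeR adjusted p = 0.072). Without untreated control replicate 3, one of the libraries that stand apart, that contrast passed at -0.60 (edgeR adjusted p = 0.019). In Vprbp siRNA cells the values were 11.4, 10.5 and 12.3 CPM with Activin and 15.5, 12.7 and 18.4 CPM without, which did not pass, although the contrast passed without untreated Vprbp siRNA replicate 2 (log2 -0.57, edgeR adjusted p = 0.018).

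Rnf2 (Ring1b), the main H2A ubiquitin ligase of stem cells, stood at 242, 251 and 241 CPM with Activin, 195, 199 and 209.8 CPM with SB and 232, 231 and 222 CPM untreated. It was higher with Activin than with SB by a log2 difference of 0.28 ± 0.05 (edgeR adjusted p = 0.00041), and SB gave -0.18 ± 0.05 against the untreated control, a call lost without SB replicates 1 (0.092) and 2 (0.077) or untreated control replicates 1 (0.068) and 2 (0.071). Its paralog Ring1 went the other way, at 15.7, 15.4 and 15.3 CPM with Activin and 19.6, 18.4 and 20.5 CPM with SB (log2 -0.34 ± 0.10). The spread within groups was small beside these gaps, and the Activin and SB ranges of both ligases were apart.

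Pcgf5 and Pcgf6, the PCGF subunits of PRC1.5 and PRC1.6, were both higher with Activin than with SB. Pcgf6 stood at 64.8, 64.3 and 64.5 CPM with Activin, 56.0, 48.1 and 54.6 CPM with SB and 60.1, 54.4 and 62.0 CPM untreated (Activin against SB 0.29 ± 0.07, edgeR adjusted p = 0.003). Pcgf5 was low, at 13.3, 10.7 and 9.39 CPM with Activin, 6.40, 7.96 and 6.44 CPM with SB and 10.5, 8.48 and 9.89 CPM untreated. Its log2 difference of 0.68 ± 0.17 between Activin and SB had a wide error, and its call with SB (-0.47 ± 0.17) was lost without SB replicates 1 (0.15) and 3 (0.14) or untreated control replicates 1 (0.15) and 3 (0.083). Pcgf1, Pcgf2 and Pcgf3 passed in none of the 4 contrasts. Pcgf2 averaged 175 ± 7.24 CPM with Activin, 168 ± 6.38 CPM with SB and 184 ± 17.2 CPM untreated. Pcgf1, of PRC1.1, averaged 8.55 ± 1.08, 9.22 ± 0.494 and 9.36 ± 3.39 CPM in that order, and Pcgf3 152 ± 4.15, 159 ± 5.58 and 155 ± 4.31 CPM.

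**Figure D3:**
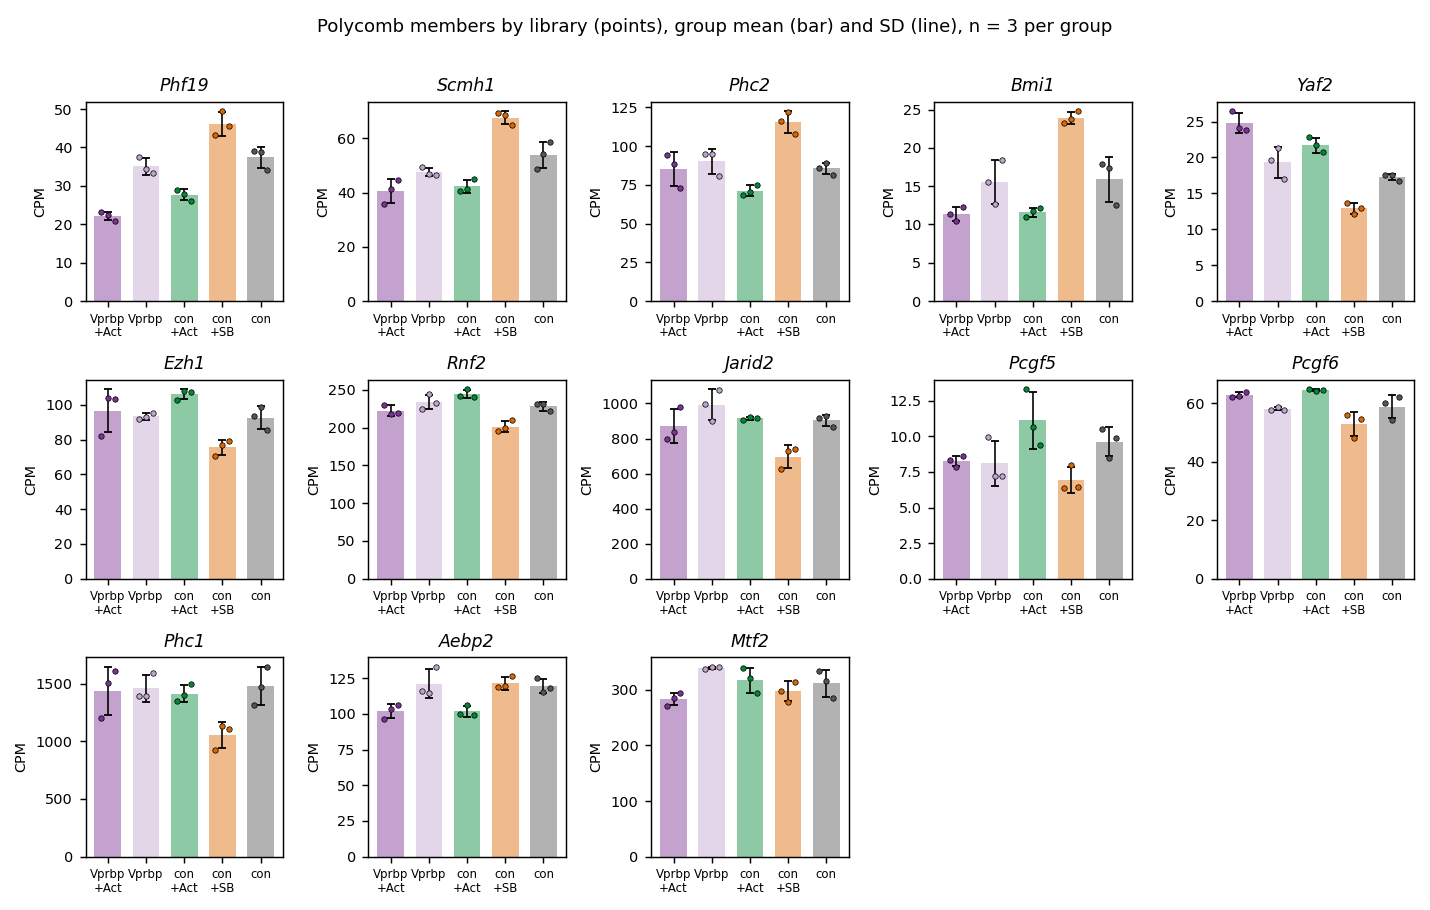
CPM in each of the 15 libraries for 13 members, with 1 panel per gene, points for libraries, bars for group means and lines for the SD (con is control siRNA, Act is Activin). Phf19, Bmi1, Scmh1 and Phc2 are highest with SB, while Yaf2, Ezh1 and Jarid2 are lowest there.

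Canonical PRC1 readers and scaffolds made up 8 genes, of which 1 was higher and 3 were lower with Activin than with SB. Phc2, a PHC scaffold, stood at 68.5, 70.4 and 75.1 CPM with Activin, 116, 122 and 108 CPM with SB and 86.2, 89.1 and 81.6 CPM untreated. Phc1 stood at 1349.6, 1397 and 1493 CPM with Activin, 925, 1132 and 1108 CPM with SB and 1314, 1466 and 1644 CPM untreated. The paralogs moved in opposite directions with SB, Phc2 by 0.43 ± 0.09 and Phc1 by -0.48 ± 0.11 on the log2 scale (edgeR adjusted p = 0.001 and 0.003), and both calls held without any 1 library. Between Activin and SB they differed by -0.69 ± 0.09 and 0.42 ± 0.11. Phc3, the lowest of the 3 PHC genes per kilobase, averaged 32.7 ± 2.26 CPM with Activin and 44.9 ± 3.30 CPM with SB and did not pass (log2 -0.46 ± 0.17, edgeR adjusted p = 0.0502). Without replicate 3 of Vprbp siRNA with Activin, Phc3 passed as lower with Activin in Vprbp siRNA cells (log2 -0.52, edgeR adjusted p = 0.016).

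Scmh1, an SCM-family protein that binds PRC1, stood at 40.5, 41.4 and 45.0 CPM with Activin, 69.5, 68.5 and 65.0 CPM with SB and 48.8, 54.4 and 58.6 CPM untreated. Its Activin, untreated and SB ranges were in that order from low to high with no overlap, so Scmh1 fell with Activin (-0.35 ± 0.09) and rose with SB (0.33 ± 0.08). The fall was lost without Activin replicates 1 (0.11) and 2 (0.090) or untreated control replicates 2 (0.060) and 3 (0.12), and the rise without untreated control replicate 1 (0.052). In Vprbp siRNA cells the values were 35.9, 41.5 and 44.7 CPM with Activin and 49.4, 47.0 and 46.5 CPM without, again apart, but the contrast did not pass (log2 -0.23 ± 0.09). Activin against SB gave -0.68 ± 0.08 (edgeR adjusted p = 3.1e-06), held without any 1 library.

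The CBX readers gave 1 call. Cbx8 had 3, 6 and 10 counts with Activin, 18, 20 and 15 with SB and 12, 3 and 8 in the untreated control, and was lower with Activin than with SB (log2 -1.39 ± 0.52). That call was lost without Activin replicates 1 (0.16) and 2 (0.072) or SB replicates 1 (0.084), 2 (0.11) and 3 (0.054), and also with DESeq2. Cbx7, the highest of the 4 readers per kilobase, averaged 255 ± 14.4 CPM with Activin, 229 ± 18.99 CPM with SB and 250.4 ± 15.1 CPM untreated, and passed in no contrast. Cbx2 averaged 70.8 ± 2.63, 77.9 ± 4.61 and 66.0 ± 7.70 CPM in the same order, with the SB libraries above the other 6, and Cbx6 92.1 ± 2.61, 101 ± 4.80 and 99.4 ± 10.3 CPM. Neither passed.

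All 4 variant PRC1 genes had positive log2 differences between Activin and SB, and 3 of the 4 passed, against 38.0% of all genes in either direction. Of these 3 calls, only that of Yaf2 held in every fit without 1 library. The calls of Kdm2b and L3mbtl2 did not, and both were also lost when a fold of at least 1.2 was required. Yaf2, a paralog of Rybp that joins the RING ligase in variant PRC1, stood at 22.8, 21.7 and 20.7 CPM with Activin, 13.7, 12.2 and 13.0 CPM with SB and 17.5, 17.6 and 16.8 CPM untreated. In Vprbp siRNA cells Yaf2 stood at 26.4, 24.1 and 23.9 CPM with Activin and 19.6, 21.3 and 17.0 CPM without. It was higher with Activin than with SB by 0.75 ± 0.10 (edgeR adjusted p = 1.1e-05), fell with SB by 0.42 ± 0.11 on the log2 scale, and rose with Activin in Vprbp siRNA cells (0.36 ± 0.10). With Activin in control siRNA cells the log2 fold change was 0.33 ± 0.10 (edgeR adjusted p = 0.069), which did not pass. The rise in Vprbp siRNA cells was lost without Vprbp siRNA with Activin replicates 1 (0.10) and 2 (0.072) or untreated Vprbp siRNA replicates 1 (0.074) and 3 (0.21).

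Rybp, at 111 ± 5.26 CPM with Activin, 100.4 ± 11.2 CPM with SB and 112 ± 4.07 CPM untreated, passed in none of the contrasts with all libraries, and passed without SB replicate 3 both as lower with SB (edgeR adjusted p = 0.034) and as higher with Activin than with SB (edgeR adjusted p = 0.031). Kdm2b, the protein that brings PRC1.1 to unmethylated CpG islands, had 162, 157 and 157 CPM with Activin, 137, 146 and 127 CPM with SB and 166, 169 and 146 CPM untreated. It was called for Activin against SB (0.21 ± 0.07), lost without Activin replicates 1 (0.088), 2 (0.054) and 3 (0.059) or SB replicates 1 (0.065) and 3 (0.14). With SB it was called at -0.23 ± 0.07, lost without SB replicates 1 (0.064) and 3 (0.14) or untreated control replicates 1 (0.090) and 2 (0.12). L3mbtl2, a subunit of PRC1.6, was higher with Activin than with SB by 0.22 ± 0.07, a call lost without Activin replicates 1 (0.064) and 3 (0.069) or SB replicate 1 (0.097).

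The enzymes that remove Polycomb marks gave small changes. Kdm6b, an H3K27 demethylase, fell with SB to 262, 255 and 244 CPM, against 306, 299 and 419 CPM untreated (log2 -0.43 ± 0.12), and had 253, 279 and 291 CPM with Activin. Its fall was lost without SB replicate 3 (0.058), and shrank to -0.25 without untreated control replicate 3, the highest library. Kdm6a, its X-linked paralog, was called higher with Activin than with SB (0.19 ± 0.07), but the call was lost without any 1 of the 6 libraries: Activin replicates 1 (0.066), 2 (0.14) and 3 (0.060) or SB replicates 1 (0.14), 2 (0.067) and 3 (0.060). Asxl1, the partner of Bap1, was also higher (0.21 ± 0.07), lost without Activin replicate 2 (0.054) or SB replicate 1 (0.092). Bap1, the H2A deubiquitinase, averaged 183 ± 4.65 CPM with Activin, 188 ± 2.07 CPM with SB and 185 ± 0.252 CPM untreated and passed in no contrast.

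Markers of cell identity moved with the same contrasts. Of the 10 embryonic stem cell markers, 6 were higher and 2 lower with Activin than with SB, and 6 fell and 1 rose with SB against the untreated control. Over all genes, 38.0% were called between Activin and SB, and 11.2% rose and 11.3% fell with SB. Trophoblast markers (8 genes, 7 tested) summed to 142 to 159.6 CPM with Activin, 179 to 212 CPM with SB and 145 to 172 CPM untreated, and 2 rose with SB. Of these sums, Tfap2c alone held 99.7 to 110, 106 to 136 and 106 to 134 CPM in that order. With Vprbp siRNA and Activin the trophoblast sum was 131 to 223 CPM, where Krt8 had 83.4 CPM in replicate 1 against 30.6 and 17.3 CPM. Neural markers (8 genes, 7 tested) summed to 216 to 221 CPM with Activin, 205 to 228 CPM with SB and 251 to 279 CPM untreated, with 1 higher and 3 lower with SB. Extraembryonic endoderm markers (8 genes) summed to 178 to 233 CPM with Activin, 133 to 173 CPM with SB and 141 to 158 CPM untreated, with 1 higher with SB. Fibroblast markers (8 genes, 6 tested) summed to 52.2 to 57.9 CPM with Activin, 41.4 to 46.7 CPM with SB and 57.3 to 76.4 CPM untreated, with 2 lower with SB, and Lum did not exceed 0.145 CPM in any library. Their part in the changes of Polycomb genes was not tested. In bulk RNA, fewer cells of a type and less RNA per cell cannot be told apart.

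Because several paralogs moved apart, their log2 ratios were compared as a description, with no test, since they come from the same contrasts. The ratio of Phc2 to Phc1 was -4.30, -4.31 and -4.31 with Activin, -2.99, -3.21 and -3.36 with SB and -3.93, -4.04 and -4.33 untreated, so the SB libraries lay above all others. The ratio of Pcgf2 to Bmi1 was 3.98, 3.85 and 3.92 with Activin, 2.80, 2.88 and 2.76 with SB and 3.21, 3.44 and 3.99 untreated, with SB lowest. For Rnf2 to Ring1 the values were 3.95, 4.03 and 3.98 with Activin, 3.32, 3.44 and 3.35 with SB and 3.69, 3.73 and 3.86 untreated. The order from low to high was SB, untreated, Activin without overlap for this ratio and for Mtf2 to Phf19. As these are CPM ratios, gene length shifts each by a constant.

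Mtf2 to Phf19 stood at 3.55, 3.68 and 3.81 in Vprbp siRNA cells with Activin, 3.16, 3.31 and 3.35 in Vprbp siRNA cells without, 3.55, 3.52 and 3.49 in control siRNA cells with Activin, 2.79, 2.50 and 2.79 with SB and 3.09, 3.02 and 3.06 untreated. Yaf2 to Rybp stood at -2.20, -2.39 and -2.46 with Activin, -2.71, -3.04 and -3.11 with SB and -2.62, -2.68 and -2.79 untreated, so Rybp was the more counted paralog in every library. Ezh2 to Ezh1 was 0.70, 0.51 and 0.50 with Activin, 0.99, 0.89 and 0.97 with SB and 0.67, 0.56 and 0.80 untreated, highest with SB among these 3 groups.

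**Figure D4:**
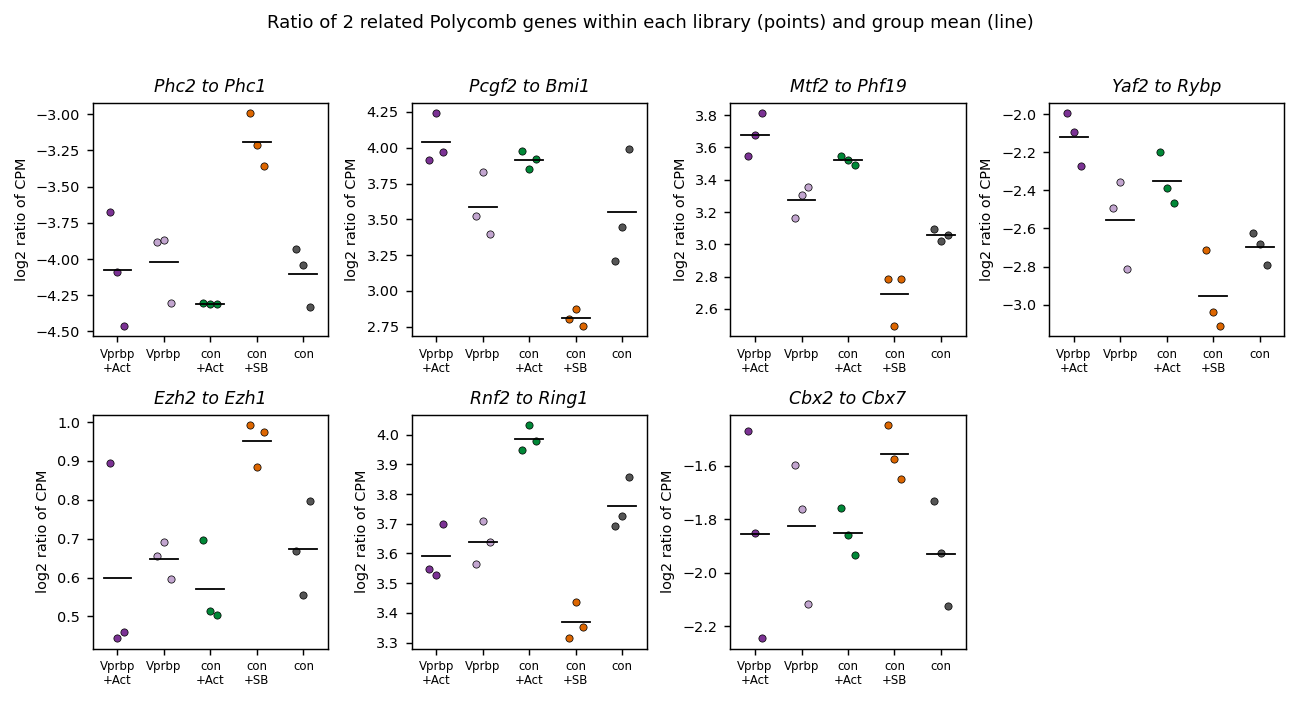
Log2 ratio of CPM within paralog pairs in each library (points) with the group mean (line), by group. SB libraries have the highest Phc2 to Phc1 and the lowest Pcgf2 to Bmi1, Mtf2 to Phf19 and Rnf2 to Ring1 ratios.

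The other factor of the design was the Vprbp siRNA. Vprbp itself had 149, 131 and 135 CPM with Vprbp siRNA and Activin, against 178, 175 and 184 CPM with control siRNA and Activin, and 121, 132 and 114 CPM with Vprbp siRNA alone, against 173, 167 and 173 CPM untreated. Its log2 fold changes were -0.37 ± 0.06 and -0.49 ± 0.06, so that the knockdown in RNA was partial. None of the 35 Polycomb genes passed in Vprbp siRNA cells against control siRNA cells, either without or with Activin, where 0.0411% of all genes passed in each contrast. At an unadjusted p under 0.05, 3 members passed without Activin (8.16% of all genes) and 9 with it (10.5%). DESeq2 called 0 members in both, against 0.230% of all genes without Activin and 0.631% with it.

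The log2 fold changes of the 35 genes lay between -0.25 and 0.24 without Activin and between -0.43 and 0.26 with it. For 33 of 35 genes the interval of 2 standard errors around the fold change stayed within 1.5-fold in each contrast. The exceptions were Pcgf1 and Cbx8 without Activin and Pcgf5 and Cbx8 with it. Libraries of the 2 siRNAs did not overlap for 5 genes without Activin (12.3% of all genes) and for 8 genes with Activin (17.4% of all genes).

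Kdm2b and Ring1 were described further because their siRNA groups were apart both without and with Activin, a choice made after their values were seen. Kdm2b had 185, 167 and 177 CPM in Vprbp siRNA cells with Activin, against 162, 157 and 157 CPM in control siRNA cells with Activin, and 201, 196 and 173 CPM against 166, 169 and 146 CPM without (log2 0.15 ± 0.07 and 0.24 ± 0.07). Ring1 had 19.7, 18.8 and 16.9 CPM against 15.7, 15.4 and 15.3 CPM with Activin, and 19.02, 18.6 and 18.7 CPM against 17.9, 17.5 and 15.3 CPM without (log2 0.26 ± 0.10 and 0.15 ± 0.10). The Vprbp siRNA values were the higher ones in each of these pairs, yet neither gene passed (edgeR adjusted p from 0.36 to 0.72). Phf19 had the smallest p with Activin, at 23.2, 22.3 and 20.9 CPM with Vprbp siRNA and 29.0, 27.9 and 26.1 CPM with control siRNA (log2 -0.32 ± 0.09, edgeR adjusted p = 0.21).

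Members called between Activin and SB gave no call with the siRNA. Ezh1 had 82.2, 104 and 104 CPM with Vprbp siRNA and Activin, against 103, 108 and 107 CPM with control siRNA and Activin, and 91.8, 92.8 and 95.5 CPM with Vprbp siRNA alone, against 93.6, 98.5 and 85.5 CPM untreated (log2 -0.14 ± 0.08 and 0.01 ± 0.08). Rnf2 had 230.5, 218 and 219.7 CPM with Vprbp siRNA and Activin and 225, 244 and 233 CPM with Vprbp siRNA alone, against the control siRNA values above (log2 -0.14 ± 0.05 and 0.04 ± 0.05). For Jarid2 the Vprbp siRNA values were 797, 839 and 979 CPM with Activin and 999, 902 and 1079 CPM without (log2 -0.07 ± 0.08 and 0.14 ± 0.08). In Ezh1 and Jarid2, replicate 1 of Vprbp siRNA with Activin, one of the libraries that lay apart, was the lowest of its group.

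Phc1 stood at 1205, 1501 and 1605 CPM with Vprbp siRNA and Activin and 1395, 1389 and 1589 CPM with Vprbp siRNA alone (log2 0.02 ± 0.11 and -0.02 ± 0.11 against control siRNA). Phc2 stood at 94.4, 88.4 and 72.9 CPM and 94.6, 95.0 and 80.6 CPM in the same groups (log2 0.26 ± 0.09 and 0.07 ± 0.09). For Pcgf6 the values were 62.1, 62.5 and 63.7 CPM and 57.7, 58.6 and 57.8 CPM (log2 -0.04 ± 0.07 and -0.02 ± 0.07). Pcgf5, with 8.30, 7.87 and 8.60 CPM and 9.93, 7.21 and 7.20 CPM, had the most negative fold changes of the 35 genes in both contrasts (log2 -0.43 ± 0.16 and -0.25 ± 0.16), neither past the threshold.

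Whether Vprbp siRNA altered the response to Activin was tested as the difference of the 2 Activin responses. None of the 35 genes passed, nor did any of the 14600 genes (0%), with DESeq2 also at 0 of both. At an unadjusted p under 0.05 there were 4 members (Mtf2, Suz12, Kdm6a and Rnf2), against 3.54% of all genes. Mtf2 had the smallest p, with a difference of -0.29 ± 0.10, and its Activin response passed in Vprbp siRNA cells (-0.26 ± 0.07) but not in control siRNA cells (0.03 ± 0.07), which is not shown to differ. The interval of 2 standard errors stayed within 1.5-fold for 32 of 35 genes, the exceptions being Pcgf1, Pcgf5 and Cbx8.

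**Figure D5:**
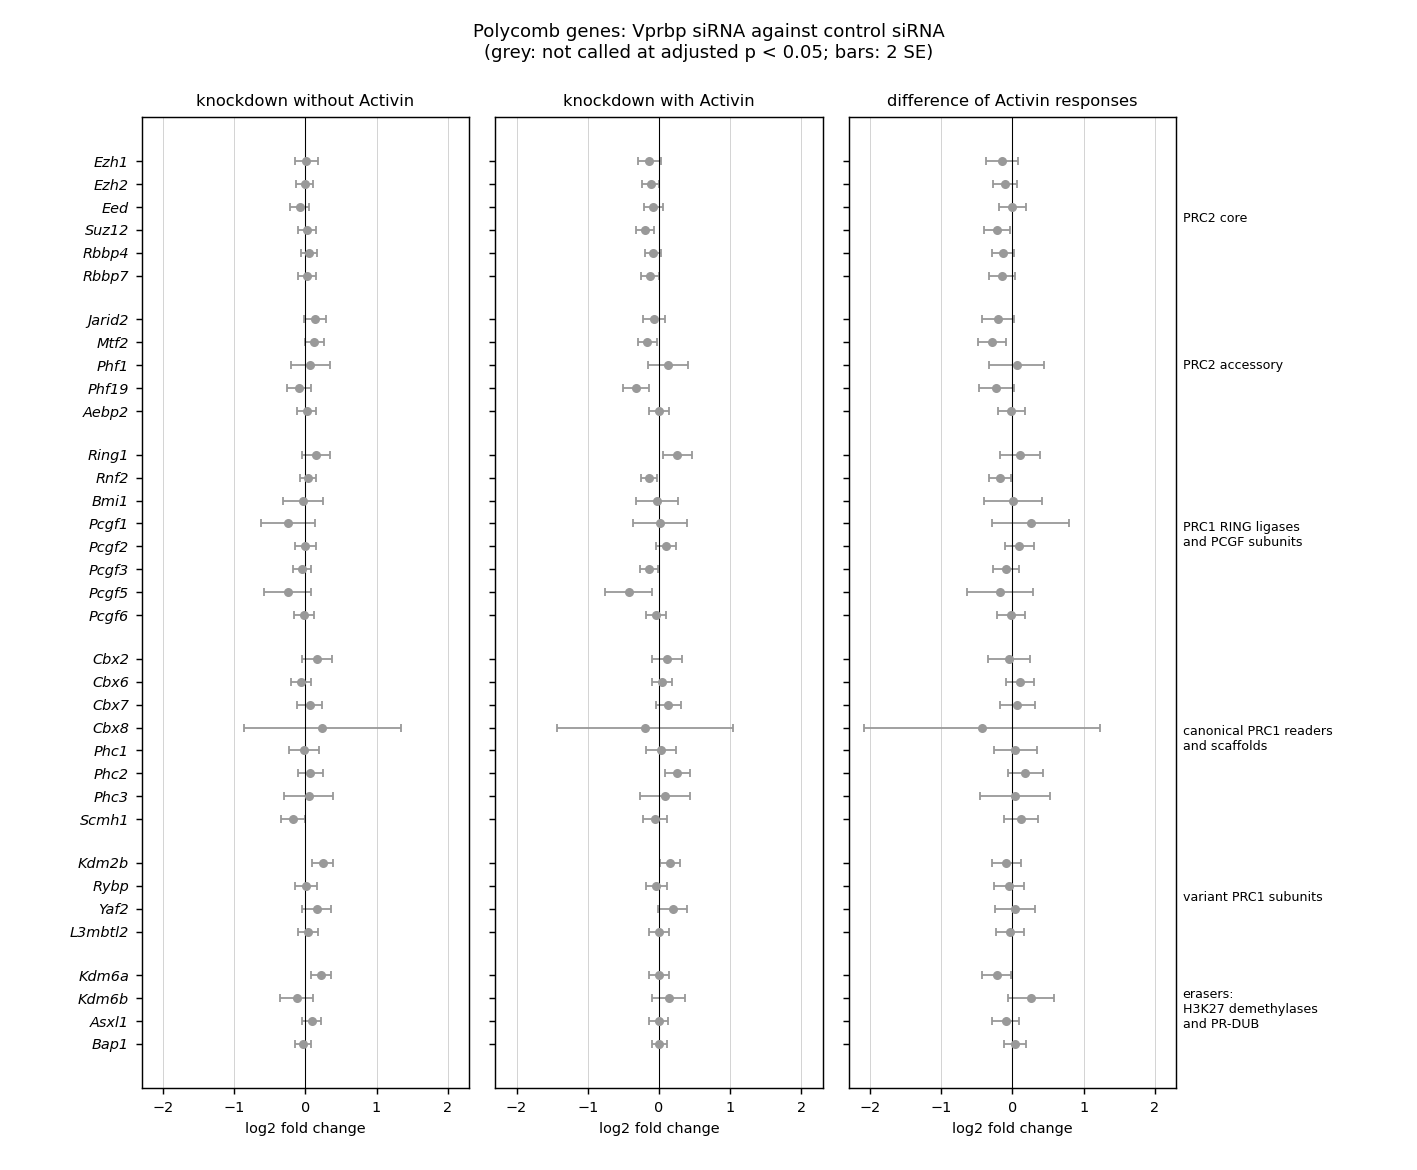
Log2 fold change of each Polycomb gene for Vprbp siRNA against control siRNA without and with Activin, and the difference of the Activin responses, with bars of 2 standard errors. No point passed the threshold, and the widest bars belong to Cbx8.

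Genes that work with the 35 members were read from lists of textbook partners. Of 28 other PRC1 and PRC2 subunits, 7 were higher and 5 lower with Activin than with SB (38.0% of all genes). With SB against the untreated control, 5 were higher and 1 lower (22.6% of all genes). Sfmbt2, an SFMBT-family protein related to the PRC1.6 subunit L3mbtl2, had 24.9 ± 2.13 CPM with Activin, 72.1 ± 1.46 CPM with SB and 29.7 ± 2.34 CPM untreated (SB 1.28 ± 0.09). Bcorl1, the paralog of the PRC1.1 subunit Bcor, had 26.7 ± 1.64, 48.5 ± 2.22 and 32.9 ± 2.75 CPM in the same order (SB 0.56 ± 0.09). Among the 35 members, the highest SB value was that of Cbx8 (1.21 ± 0.50), which did not pass and cannot be told apart from that of Sfmbt2. Without Cbx8 the highest member value was 0.59. Max, the DNA-binding partner in PRC1.6, was higher with Activin than with SB (0.43 ± 0.06). With Activin in control siRNA cells 1 of the 28 passed, against 4.83% of all genes: E130012A19Rik, lower at -0.39 ± 0.08.

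Of 12 further PR-DUB and H2A deubiquitinase genes, 3 were higher and 1 lower with Activin than with SB (38.0% of all genes). With SB, 1 was lower than untreated (22.6% of all genes). Among 17 trithorax and COMPASS genes, which oppose Polycomb, 4 were higher and 3 lower with Activin than with SB (38.0% of all genes). Of these, Dpy30, a shared COMPASS subunit, rose with Activin in control siRNA cells (0.30 ± 0.08) and Setd1b, an H3K4 methyltransferase, fell (-0.35 ± 0.09). They were 2 of the 17 genes, against 4.83% of all genes. None of the 3 lists held a gene that passed in either knockdown contrast (0.0411% of all genes in each).

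Developmental genes that carry Polycomb marks in stem cells were read from a list of 34, of which 23 passed the filter on low counts. Of the 23, 2 were higher and 10 lower with Activin than with SB, and 8 rose and none fell with SB against the untreated control. Their median log2 difference was -0.60 for Activin against SB and 0.24 for SB. Meis1, a homeobox gene, had 1.91, 1.99 and 2.05 CPM with Activin, 13.4, 12.7 and 11.5 CPM with SB and 7.73, 5.58 and 6.14 CPM untreated. Pax6, a neural and eye homeobox gene, had 11.0, 15.1 and 12.3, 42.4, 41.4 and 46.0 and 27.5, 27.3 and 23.3 CPM in that order. Both fell with Activin (-1.71 ± 0.18 and -1.03 ± 0.14) and rose with SB (0.95 ± 0.14 and 0.73 ± 0.13). In the other direction, T stood at 16.3, 12.7 and 10.05 CPM with Activin and 2.11, 1.09 and 3.58 CPM with SB. Eomes stood at 18.7, 15.2 and 19.3 CPM with Activin and 7.20, 6.87 and 7.88 CPM with SB. With the Vprbp siRNA, Meis1 was the only 1 of the 23 that passed without Activin, and none passed with Activin (0.0411% of all genes in each contrast). Meis1 stood at 11.5, 10.7 and 12.5 CPM with Vprbp siRNA alone against 7.73, 5.58 and 6.14 CPM untreated (log2 0.83 ± 0.14, edgeR adjusted p = 0.028).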

How the data were processed

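RNA sequencing of 15 libraries was read from 1 deposited table of counts per gene symbol, which holds 24456 rows, 5 of them HTSeq tallies left out of library sizes and tests. Counts were made with HTSeq 0.6.1p1 on mm10, per the submitters' processing notes, and the deposited counts are not normalized. Aligner, annotation and strand use were not given in the sources used here. Per library, genes took 55.6% to 60.4% of fragments, while the tallies for no feature (10.3% to 16.0%), ambiguity (0.678% to 0.722%) and no alignment (27.7% to 29.5%) took the rest. Gene counts per library were 11.1 to 15.5 M (M, mega), and the limit of 3 counts covers counting error only.

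Groups and replicate numbers came from the sample titles. Genes passing edgeR's filterByExpr (minimum count 10) were scaled by TMM (factors 0.985 to 1.02) and tested in edgeR 4.0.16 (R 4.3.3) with robust glmQLFit and glmQLFTest, 1 mean per group over all 15 libraries, and Benjamini-Hochberg adjustment over 14600 genes at 0.05. The 7 comparisons were Activin against SB, SB, Activin under each siRNA, Vprbp siRNA without and with Activin, and the difference of the Activin responses. The biological coefficient of variation was 8.76%. Replicates differed by more than sampling noise (chi-square per degree of freedom 2.75 to 16.1). The procedure was tried on simulated counts with changes of at least 1.5-fold planted in the SB group and the same dispersion for all genes. Smaller changes were not simulated. Levels per kilobase used the exon union of GENCODE basic genes on GRCm38. Promoters and positions came from RefSeq on GRCm38, with 30 and 35 of 35 members matched.

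The members and lists were chosen with earlier results of these data known. Values of 1 further partner gene, which is counted among the 28 other PRC1 and PRC2 subunits, are not reported here. Values in every library are given for the 12 members with the smallest p among those called in Activin against SB, and for members called in an Activin or knockdown comparison. Alternatives were RLE size factors, library totals, no filter, a filter of 1 CPM in 3 libraries, DESeq2 1.42.0, a test against a fold of 1.2, a replicate block, fitting only the compared libraries, and omitting each library in turn. Same-numbered libraries of untreated Vprbp siRNA and untreated control deviated together from their group means, with correlations over genes of 0.12 to 0.37. Other pairs of groups did not pass 0.1 at every number.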

Additional observations from a re-analysis of the deposited data

How the results depend on the processing

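No called change among the 35 genes changed sign under any alternative. The counts of called members stayed within 1.5 times of those reported (18 for Activin against SB, 13 with SB, 2 and 4 with Activin in control and Vprbp siRNA cells) under RLE size factors, library totals, both filters and DESeq2. A required fold of 1.2 left 7 for Activin against SB (19.5% of all genes), 1 with SB (Bmi1, against 9.41%), 0 with Activin in control siRNA cells (0.842%) and 1 with Activin in Vprbp siRNA cells (Phf19, against 1.67%), since it asks for a larger change. With a replicate block, 6 members were called with Activin in control siRNA cells (7.25% of all genes), where the numbers were not shown to pair the samples. For Vprbp siRNA without Activin the count stayed at 0. There same-numbered libraries deviated together (correlations of 0.12 to 0.37), but no label states a pairing. The block changed no other count by over 1.5 times. With only the libraries compared, or without the 3 libraries that lay apart (chosen after seeing the data), 1 member was called with Activin in Vprbp siRNA cells (2.65% and 5.14% of all genes). Without those 3 libraries 5 were called with Activin in control siRNA cells (5.11%). The causes were not tested. Leaving out 1 library in turn gave 13 to 16 member calls for Activin against SB (4533 to 4774 of all genes). With SB it gave 8 to 11 (2399 to 3424 of all genes). Activin gave 1 to 2 in control siRNA cells (265 to 721 of all genes) and 1 to 6 in Vprbp siRNA cells (351 to 1167). These fits tested 14771 to 14803 genes. Members gave 0 calls in Vprbp siRNA without Activin (2 to 37 of all genes), with Activin (0 to 21) and in the difference of the Activin responses (0). Of the called members, 13 of 18, 5 of 13, 1 of 2 and 1 of 4 kept their call in every such fit, in the same order. Over single members, leaving out 1 library lost 59 calls and gained 7 among 1680 results. Most of the 1680 had no call with all libraries and so none to lose. Depth limits Cbx8, whose libraries held 1 to 20 counts.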
